A study of Homo sapiens with 14 samples.

Results

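The 9 genes described here encode feedback inhibitors of the mitogen-activated protein kinase (MAPK) cascade: the dual-specificity phosphatases DUSP1, DUSP4, DUSP5 and DUSP6, the Sprouty proteins SPRY1, SPRY2 and SPRY4, and the Spred proteins SPRED1 and SPRED2. They were chosen by symbol, and all 9 were found among the 60876 genes with transcripts in the data and among the 15426 genes tested. RNA came from MDA-MB-231 cells, a line of triple-negative breast cancer, that were treated with RBI2 or CX-5461 at 5 µM, with labels of 10, 30 and 120 min, or left as the control. CX-5461 is an inhibitor of RNA polymerase I, and RBI2 is a small molecule described as an inhibitor of ribosome biogenesis. The labels and design text give an untreated control, while the results text of the study names DMSO, so the vehicle of the control was not certain. Each of the 7 groups had 2 libraries, 14 in all, and neither the labels nor the methods say that the replicates were separate cultures. The p-values therefore measure the spread between these libraries, which may be technical. The names of the deposited files carry the numbers 02, 10 and 30 where the labels give 10, 30 and 120 min, and every time below is that of the label.

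Growth factor receptors activate RAS, RAF, MEK and ERK in turn, and active ERK switches on genes that hold the cascade down. Dual-specificity phosphatases remove phosphate from the MAPKs themselves. DUSP6 is a cytoplasmic phosphatase selective for ERK, DUSP5 is a nuclear one selective for ERK, and DUSP1 and DUSP4 are nuclear enzymes that also act on JNK and p38. Sprouty proteins restrain signalling between the receptor and RAF, and Spred proteins bring neurofibromin to the membrane, where it turns RAS off. Because several of these transcripts are short-lived and follow ERK activity, they are widely used as readouts of the pathway.

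The libraries held 14112299 to 24849354 estimated reads, of which 1.03% to 1.13% were not matched to a gene. The 9 genes together held 5963 to 11598 reads per library. The line markers VIM, CD44, EGFR, MSN and AXL were present in every library, the epithelial and immune markers CDH1 and PTPRC and the receptor ESR1 had group means of at most 0.293 CPM (reads scaled to library size), PGR was at 0, and EPCAM lay at 9.17 to 14.3 CPM. Control replicate 2 stood apart: 20.6% of its matched reads were mitochondrial, against 8.14% to 11.3% in the other libraries. The control replicates differed by over 2-fold for 1412 genes, where the other replicate pairs differed so for 461 to 629. Over the 9 genes, the median difference between replicates was 0.32 on the log2 scale in the control and 0.04 to 0.12 in the other groups.

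Promoter sequences are shown for DUSP1, DUSP6 and SPRY2, the genes that separated the compounds. Each is the 250 bases before the RefSeq start on the minus strand of GRCh38.p14, at chr5:172771196-172771445, chr12:89352502-89352751 and chr13:80341127-80341376 in that order, written 5′ to 3′. The starts are those of DUSP1-201, DUSP6-201 and SPRY2-202, the transcripts with most of each gene's reads. Capitals mark the cyclic AMP response element TGACGTCA, its shorter form TGACG on either strand, and a stretch with 4 runs of at least 3 G, on either strand, separated by gaps of at most 7 bases.
DUSP1: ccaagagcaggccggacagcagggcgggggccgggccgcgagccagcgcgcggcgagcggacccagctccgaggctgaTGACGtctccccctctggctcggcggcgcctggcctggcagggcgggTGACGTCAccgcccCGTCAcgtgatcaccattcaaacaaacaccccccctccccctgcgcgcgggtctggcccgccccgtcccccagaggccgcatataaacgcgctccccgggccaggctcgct
DUSP6: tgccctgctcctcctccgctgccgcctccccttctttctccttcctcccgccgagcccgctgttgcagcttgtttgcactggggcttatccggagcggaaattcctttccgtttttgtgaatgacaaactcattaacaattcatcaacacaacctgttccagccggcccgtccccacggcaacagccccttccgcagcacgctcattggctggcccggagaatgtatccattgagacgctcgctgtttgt
SPRY2: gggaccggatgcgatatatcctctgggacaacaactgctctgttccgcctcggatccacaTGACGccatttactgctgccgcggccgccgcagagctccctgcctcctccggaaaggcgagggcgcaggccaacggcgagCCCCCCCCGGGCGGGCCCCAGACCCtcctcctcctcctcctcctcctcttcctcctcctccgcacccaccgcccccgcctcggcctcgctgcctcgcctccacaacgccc

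The DUSP1 window held 1 TGACGTCA, which starts 125 bases before the start, and 4 matches to TGACG, of which 2 lie inside the longer element. TGACGTCA was found in 1.65% of the 35116 promoter windows of the same length, and TGACG in 21.2%. The SPRY2 window held 1 TGACG and 1 stretch that met the rule for G runs. It reads as runs of C on the strand shown, and reaches 4 runs only where its longest unbroken run is counted as 2. Stretches of this kind were present in 23.5% of all windows. The other RefSeq windows of SPRY2, at chr13:80340109-80340358 and chr13:80339660-80339909, held neither TGACG nor such a stretch. The DUSP6 window held none of the motifs searched, which also included the AP-1 site TGANTCA (6.57% of windows), the CArG box (1.16%) and the CIC site TGAATGAA (1.4%). RefSeq entries were matched for 7 of the 9 genes, with DUSP4 and DUSP5 unmatched. Of the others, SPRY4 held 1 TGACG and SPRY1, SPRED1 and SPRED2 held none of the motifs.

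All 9 genes were expressed in every library. Per transcript length, as TPM (the level scaled to both transcript length and library size), DUSP6 had the highest median level, with a value of 65.0 over the 14 libraries and a range of 22.2 to 80.5. DUSP5 followed at 35.8 (21.9 to 45.9), then SPRY2 at 29.0 (11.5 to 34.4), DUSP4 at 20.5 (13.0 to 26.1) and DUSP1 at 19.1 (16.2 to 42.1). The lower levels were those of SPRY4 at 14.8 (9.59 to 21.4), SPRED2 at 14.7 (10.4 to 17.4), SPRY1 at 10.97 (5.68 to 12.1) and SPRED1 at 8.58 (5.33 to 12.6). The lowest TPM of DUSP4, DUSP5, SPRY4, SPRED1 and SPRED2 was that of control replicate 2. There DUSP4 had 13.0 TPM against 25.9 TPM in control replicate 1, while its CPM were 96.8 and 108. Apart from DUSP6 and DUSP5, the ranges of neighbours in this order overlapped also without the CX-5461 libraries labelled 10 min. In the other 12 libraries DUSP6, at 57.6 to 80.5 TPM, lay above DUSP5, at 21.9 to 45.9 TPM. With CX-5461 labelled 10 min DUSP5 was the higher of the pair, at 32.3 and 31.1 TPM against 24.8 and 22.2 TPM.

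**Figure D1:**
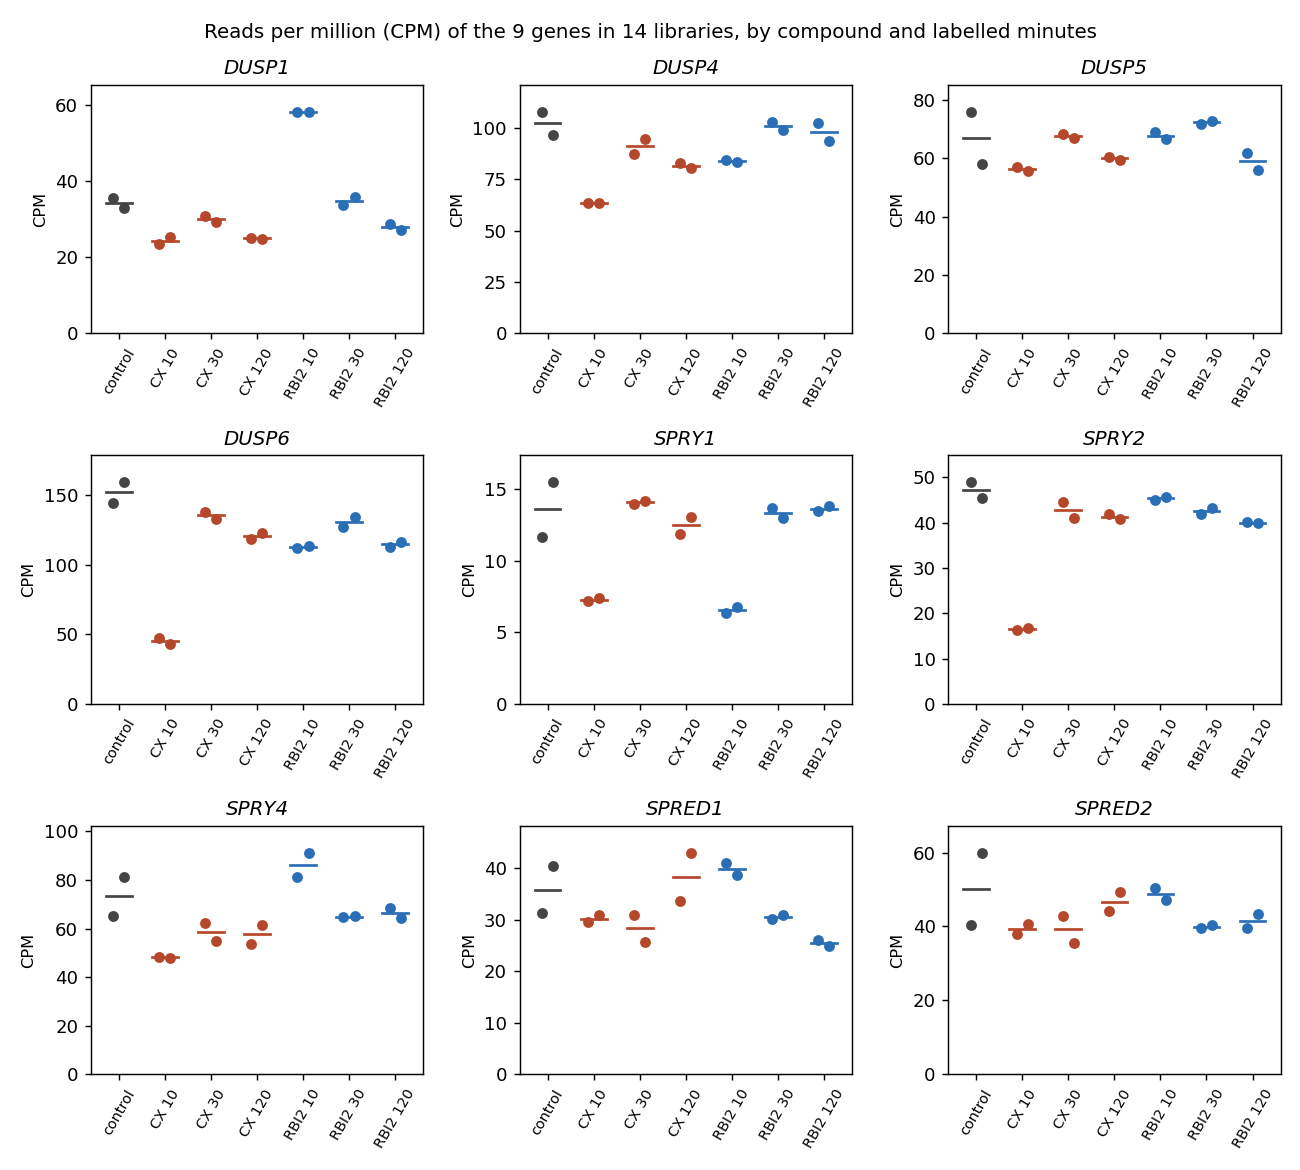
CPM of each of the 9 genes (vertical axis, from 0) in the 14 libraries, by group (horizontal axis: control, CX-5461 and RBI2 with the labelled minutes). Points are libraries and bars are means of 2. The CX-5461 libraries labelled 10 min are the lowest for DUSP6 and SPRY2, at 43.4 to 47.6 and 16.3 to 16.7 CPM, and the RBI2 libraries labelled 10 min are the highest for DUSP1, at 58.1 and 58.2 CPM.

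Summed over the 9 genes, the level was 331 and 332 CPM in the CX-5461 libraries labelled 10 min, against 562 and 590 CPM in the control. In the remaining CX-5461 libraries it was 473 to 520 CPM, and with RBI2 it was 480 to 551 CPM. The lowest sums were thus those of CX-5461 labelled 10 min, well apart from all other libraries. A sum weighs genes by their level, and the mean of DUSP6 alone was 152 CPM in the control and 45.5 CPM in that group. The means of DUSP5 were 67.1 and 56.3 CPM, and those of SPRED1 were 35.8 and 30.1 CPM. In bulk RNA, a lower level in all cells and a loss from some of the cells cannot be told apart.

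DUSP6 (chromosome 12, 89347235 to 89352501, minus strand) showed the largest fitted change of the 9 genes. It had 145 and 160 CPM in the control replicates, and 47.6 and 43.4 CPM with CX-5461 labelled 10 min. It then had 138 and 133 CPM at the 30 min label and 119 and 123 CPM at the 120 min label of the same compound. The group labelled 10 min lay far below every other library. With RBI2, DUSP6 had 112 and 114 CPM at 10 min, 127 and 134 CPM at 30 min, and 113 and 117 CPM at 120 min. Every RBI2 library lay below both controls, by much less than CX-5461 labelled 10 min. The fitted log2 fold change of CX-5461 labelled 10 min against the control was -1.74 (standard error 0.08, edgeR adjusted p = 9.3e-07), and without control replicate 2 it was -1.67. RBI2 against the control gave -0.43 at 10 min (edgeR adjusted p = 0.064) and -0.22 at 30 min (edgeR adjusted p = 0.13). At 120 min it gave -0.41 (edgeR adjusted p = 0.012), and none of these reached the limit of 2-fold. Among fits to all 14 libraries, the adjusted p at 10 min was under 0.05 by DESeq2 and with its size factors in edgeR. It was also under 0.05 with no filter and without mitochondrial genes. The RBI2 values depended on which control library was kept. Without control replicate 1 they were -0.50 at 10 min and -0.29 at 30 min, and without control replicate 2 they were -0.38 and -0.15. Over all alternatives the change lay between -0.61 and -0.38 at 10 min and between -0.66 and -0.32 at 120 min. The edgeR adjusted p at 120 min was 0.092 and 0.064 without replicate 1 or 2 of that group.

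SPRY2 (chromosome 13, 80335976 to 80341126, minus strand), a Sprouty protein that binds the adaptor GRB2, followed a similar course. It had 49.0 and 45.5 CPM in the control, and 16.3 and 16.7 CPM with CX-5461 labelled 10 min. It had 44.6 and 41.0 CPM at the 30 min label and 41.9 and 40.7 CPM at the 120 min label. Only the group labelled 10 min lay apart from the rest. With RBI2 the values were 45.1 and 45.6, 41.8 and 43.3, and 40.2 and 39.9 CPM in the order of the labels. These stayed near the control, overlapping it at 10 min and lying just below it afterwards. The log2 fold change of CX-5461 labelled 10 min against the control was -1.52 (standard error 0.08, edgeR adjusted p = 3.3e-06), and for RBI2 at the same label it was -0.06 (95% interval -0.23 to 0.11).

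SPRY1 (chromosome 4, 123396795 to 123403760, plus strand), a second Sprouty gene at a lower level, was low with both compounds at the first label. It had 11.7 and 15.5 CPM in the control, 7.17 and 7.39 CPM with CX-5461 labelled 10 min, and 6.38 and 6.73 CPM with RBI2 labelled 10 min. The 4 treated libraries of this label lay below all the others. At the 30 and 120 min labels it was between 11.9 and 14.2 CPM with CX-5461 and between 13.0 and 13.8 CPM with RBI2, within the span of the control. The log2 fold change with RBI2 labelled 10 min was -1.05 (standard error 0.13, edgeR adjusted p = 0.014), and with CX-5461 it was -0.89 (edgeR adjusted p = 0.004), short of the 2-fold limit. The RBI2 value rested on few libraries. It was -0.85 (edgeR adjusted p = 0.012) without control replicate 2 and -1.246 (edgeR adjusted p = 1e-04) without control replicate 1, passed no longer without either RBI2 replicate labelled 10 min, and was -0.86 with an offset for transcript length. The CX-5461 value was -0.68 (edgeR adjusted p = 0.0075) without control replicate 2 and passed without control replicate 1, at -1.09 (edgeR adjusted p = 1e-04).

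DUSP1 (chromosome 5, 172768096 to 172771195, minus strand), an immediate early phosphatase, moved the other way with RBI2. It had 35.4 and 32.9 CPM in the control, 58.2 and 58.1 CPM with RBI2 labelled 10 min, 33.7 and 35.8 CPM at 30 min and 28.7 and 27.2 CPM at 120 min. With CX-5461 it had 23.3 and 25.4, 30.9 and 29.1, and 25.1 and 24.7 CPM. The RBI2 libraries labelled 10 min lay above all others, and the CX-5461 libraries of every label lay below the control. RBI2 labelled 10 min was 1.70-fold above the control (log2 0.77, edgeR adjusted p = 0.0056), under the limit of 2-fold. The fold changed little without either RBI2 replicate labelled 10 min, but the edgeR adjusted p was then 0.061 and 0.088, and with only the 4 libraries compared it was 0.88. CX-5461 labelled 10 min gave a log2 fold change of -0.49 (edgeR adjusted p = 0.009), and the edgeR adjusted p was 0.13 and 0.061 without replicate 1 or 2 of that group.

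The other phosphatases, DUSP4 and DUSP5, stayed under the limit of 2-fold in every comparison. DUSP4 (chromosome 8, 29333064 to 29350684, minus strand) had 108 and 96.8 CPM in the control and 63.3 CPM in both CX-5461 libraries labelled 10 min. Its log2 fold change was -0.70 (edgeR adjusted p = 7e-04), and -0.54 with the offset for transcript length (edgeR adjusted p = 0.12). Those 2 libraries were its lowest, and all others lay between 80.4 and 108 CPM. DUSP5 (chromosome 10, 110497907 to 110511533, plus strand) ranged from 55.7 to 76.1 CPM over the 14 libraries, with 76.1 and 58.2 CPM in the control. Its log2 fold changes against the control lay between -0.26 and 0.11 and none had an edgeR adjusted p under 0.05. These values depended on which control library was used. Without control replicate 2 they were -0.43 with CX-5461 labelled 10 min (edgeR adjusted p = 0.011) and -0.37 with RBI2 labelled 120 min (edgeR adjusted p = 0.019). Without control replicate 1 they were 0.31 with RBI2 labelled 30 min (edgeR adjusted p = 0.01) and 0.22 with CX-5461 labelled 30 min (edgeR adjusted p = 0.048).

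SPRY4 (chromosome 5, 142310427 to 142326455, minus strand) had 65.3 and 81.2 CPM in the control, 48.5 and 48.0 CPM with CX-5461 labelled 10 min and 81.0 and 91.3 CPM with RBI2 labelled 10 min. The compounds thus lay on either side of the lower control library. The log2 fold change with CX-5461 was -0.60 (edgeR adjusted p = 0.017), and it was -0.43 (edgeR adjusted p = 0.052) without control replicate 2, -0.75 (edgeR adjusted p = 0.00063) without control replicate 1 and -0.21 with the offset for transcript length. The Spred genes SPRED1 (chromosome 15, 38252836 to 38357249, plus strand) and SPRED2 (chromosome 2, 65310851 to 65432637, minus strand) ranged from 24.8 to 43.0 and from 35.6 to 59.99 CPM. Their control replicates were themselves far apart, at 31.2 and 40.4 CPM for SPRED1 and 40.3 and 59.99 CPM for SPRED2. Against the control their log2 fold changes with CX-5461 labelled 10 min were -0.25 and -0.35. With the offset for transcript length they turned to 0.09 and 0.03. Without control replicate 2 they were -0.05 and -0.03, and without control replicate 1 they were -0.43 (edgeR adjusted p = 0.042) and -0.61 (edgeR adjusted p = 0.0028).

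Counted over the 9 genes, with a gene called where the edgeR adjusted p was under 0.05 and the change was at least 2-fold, CX-5461 labelled 10 min had 2 lower, DUSP6 and SPRY2, and 0 higher. Of all genes tested, 0.888% were called lower in this comparison. In either direction 1.64% were called, and 8.33% without control replicate 1. Both calls were lost in a fit to only the 4 libraries compared, where DUSP6 was at -1.73 (edgeR adjusted p = 0.095) and SPRY2 at -1.50 (edgeR adjusted p = 0.1). By the adjusted p alone 6 of the 9 were lower, where 2.98% of all genes were, and the count was 4 with the length offset, without DUSP4 and SPRY4. It was also 4 without either CX-5461 replicate labelled 10 min, 8 without control replicate 1, where 20% of all genes were lower by that rule, and 0 with only the 4 libraries, where 0.0139% were. In 8 of the 9, SPRED2 being the exception, both CX-5461 libraries lay below both controls, which held for 24% of all genes. The median log2 fold change of the 9 was -0.60, against -0.04 over all genes tested.

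RBI2 labelled 10 min had 1 of the 9 lower than the control, SPRY1, and 0.0194% of all genes were called lower. That call was lost in a fit to only the 4 libraries compared, where 0 of all genes were called. It was also lost with the length offset, at -0.86 (edgeR adjusted p = 0.047). Over all alternatives the SPRY1 value lay between -1.246 and -0.85. In either direction 0.0778% of all genes were called, and 4.45% without control replicate 1. The median log2 fold change of the 9 was -0.03. All comparisons with the control share its 2 libraries, and these counts are therefore not independent of each other.

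At the later labels 0 of the 9 were called against the control by edgeR. For RBI2 the background was 0.0389% of all genes at 30 min and 1.82% at 120 min, in either direction, and for CX-5461 it was 0% and 0.0454%. These shares rested on the control libraries: without control replicate 1 the shares for RBI2 rose to 6.59% and 8.21%, and those for CX-5461 to 7.03% and 3.76%. By the adjusted p alone the same fit gave 1 of the 9 higher and 4 lower at 30 min with either compound, where 38.3% of all genes differed with RBI2 and 39.3% with CX-5461. With CX-5461 labelled 120 min it gave 5 lower, where 7.91% of all genes were, and in the fit to all libraries these 3 counts were 0. By DESeq2 with both thresholds the count was 0 in each of the 4 comparisons at the later labels as well. By its adjusted p alone 2 of the 9 were lower with CX-5461 labelled 120 min, and by edgeR with no filter 1 was. The shares of all genes in those fits are not given here, so these counts have no background beside them. At an unadjusted p under 0.05, 1 and 4 of the 9 differed with RBI2 at 30 and 120 min, where 25.8% and 35.9% of all genes did, and 2 and 5 with CX-5461, where 22.9% and 12.4% did. With RBI2 labelled 120 min, 3 genes (DUSP1, DUSP6 and SPRED1) were lower by the adjusted p alone, where 9.07% of all genes were lower by that rule. Their log2 fold changes were -0.29, -0.41 and -0.49. That count was 0 with the length offset, 1 with protein-coding transcripts only and 0 with only the 4 libraries compared. With the replicate number as a block it was 1. At its smallest over all alternatives, the change of SPRED1 was -0.09. SPRED1 was at -0.30 (edgeR adjusted p = 0.21) without control replicate 2, the edgeR adjusted p of DUSP1 lay between 0.038 and 0.17 with 1 library left out, and the count of 3 ranged from 0 to 4 as single libraries were left out, with 0 without either RBI2 replicate labelled 120 min. The count was 4 without either control library, where 22.5% of all genes were lower without replicate 1 and 2.66% without replicate 2.

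**Figure D2:**
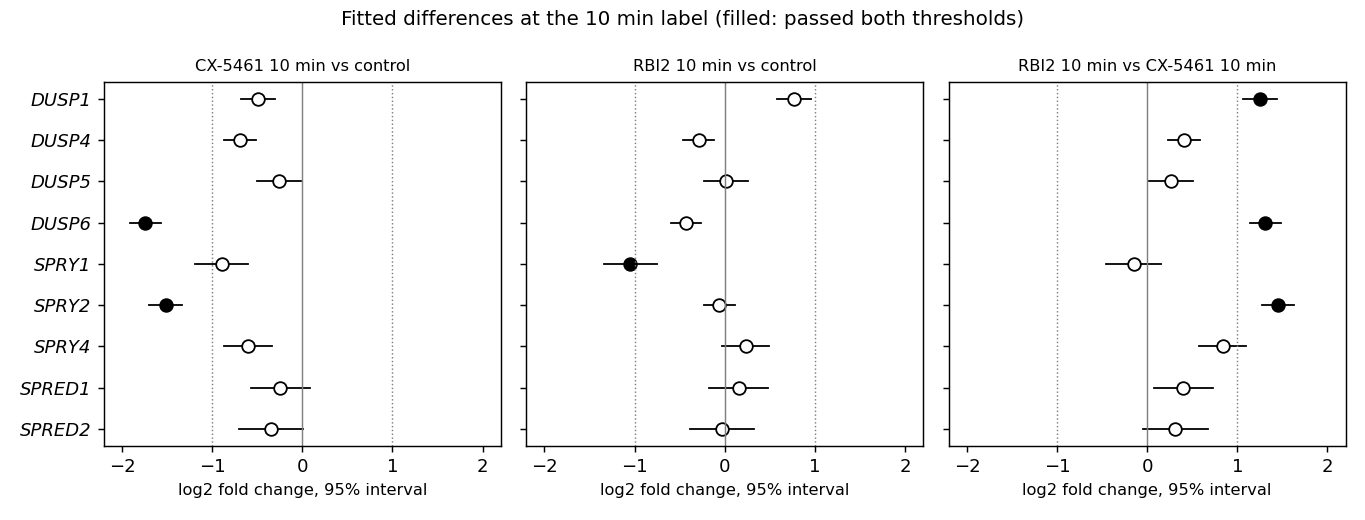
Fitted log2 fold changes (horizontal axis) of the 9 genes for 3 comparisons at the 10 min label, with 95% intervals. Filled circles passed the adjusted p and the 2-fold limit, which the dotted lines mark. CX-5461 against the control shows DUSP6 at -1.74 and SPRY2 at -1.52, and RBI2 against CX-5461 shows DUSP1, DUSP6 and SPRY2 at 1.254, 1.31 and 1.46.

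The compounds were compared directly at equal dose and label. The control libraries are not part of the difference, although they enter the shared filter and estimate of spread. At 10 min, 3 of the 9 were higher with RBI2 than with CX-5461: DUSP1 by 1.254 (standard error 0.09, edgeR adjusted p = 2.2e-05), DUSP6 by 1.31 (standard error 0.08, edgeR adjusted p = 1.2e-05) and SPRY2 by 1.46 on the log2 scale (standard error 0.08, edgeR adjusted p = 8.8e-06). Of all genes tested, 0.635% were called higher here. By the adjusted p alone 5 of the 9 were higher, with SPRY4 at 0.84 and DUSP4 at 0.40, where 2.23% of all genes were. The count was 4 to 6 as single libraries were left out and 8 with only the 4 libraries, where 6.77% of all genes were higher, and the edgeR adjusted p of DUSP4 rose to 0.26 without CX-5461 replicate 2 labelled 10 min. In 8 of the 9, both RBI2 libraries lay above both CX-5461 libraries, which held for 30.1% of all genes. SPRY1 was the exception, with a difference of -0.15 (95% interval -0.46 to 0.15).

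At the 30 and 120 min labels 0 of the 9 differed between the compounds by edgeR or by DESeq2, where 0.013% and 1.67% of all genes were called. At an unadjusted p under 0.05 the counts were 1 and 2, where 7.79% and 31.6% of all genes differed. For DUSP6 the difference of RBI2 minus CX-5461 was -0.05 (95% interval -0.22 to 0.11) at 30 min and -0.07 (95% interval -0.24 to 0.09) at 120 min. For SPRY2 it was -0.01 (95% interval -0.18 to 0.16) and -0.05 (95% interval -0.22 to 0.12). By the adjusted p alone, DUSP4 was higher and SPRED1 lower with RBI2 at 120 min, by log2 differences of 0.27 and -0.59, where 16.1% of all genes differed in either direction by that rule. As single libraries were left out, SPRED1 lay between -0.77 and -0.37 with an edgeR adjusted p of up to 0.19, and DUSP4 between 0.25 and 0.32 with one of up to 0.23.

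Within CX-5461, DUSP6 and SPRY2 were higher at the later labels than at 10 min. DUSP6 was higher by 1.58 at 30 min (edgeR adjusted p = 2.1e-06) and by 1.41 at 120 min (edgeR adjusted p = 5.4e-06). SPRY2 was higher by 1.37 (edgeR adjusted p = 1e-05) and 1.32 (edgeR adjusted p = 1.4e-05). These were 2 of the 9 in each comparison, with 0.402% and 0.473% of all genes called higher. By the adjusted p alone DUSP4 and SPRY1 joined them, making 4 of the 9 in both comparisons, where 1.4% and 2.16% of all genes were higher. Leaving out single libraries gave 3 to 6 at 30 min, with 6 without control replicate 2, and 2 to 4 at 120 min, with 2 without either CX-5461 replicate labelled 10 min or replicate 2 labelled 120 min. Between 30 and 120 min 0 of the 9 were called by edgeR or DESeq2, 3 had an unadjusted p under 0.05, where 19.3% of all genes did, and 0.013% of all genes were called.

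Within RBI2, SPRY1 was higher at 30 min than at 10 min, by 1.03 (edgeR adjusted p = 0.016), where 0.0194% of all genes were called higher. With the length offset this was 0.97 (edgeR adjusted p = 0.021), under the limit of 2-fold. At 120 min SPRY1 was higher than at 10 min by 1.06 (edgeR adjusted p = 0.0053) and DUSP1 was lower, at -1.06 (edgeR adjusted p = 0.00062). Of all genes, 0.538% were called higher and 0.156% lower in that comparison. Between 30 and 120 min 0 of the 9 were called by edgeR or DESeq2, 3 had an unadjusted p under 0.05, where 10.3% of all genes did, and 0.013% of all genes were called. The SPRY1 difference at 30 min passed no longer without either replicate of RBI2 labelled 10 or 30 min or without the second RBI2 replicate labelled 120 min, and over all libraries left out in turn it lay between 0.99 and 1.07. The SPRY1 difference at 120 min passed no longer without replicate 1 of the 10 min label or replicate 2 of the 120 min label.

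**Figure D3:**
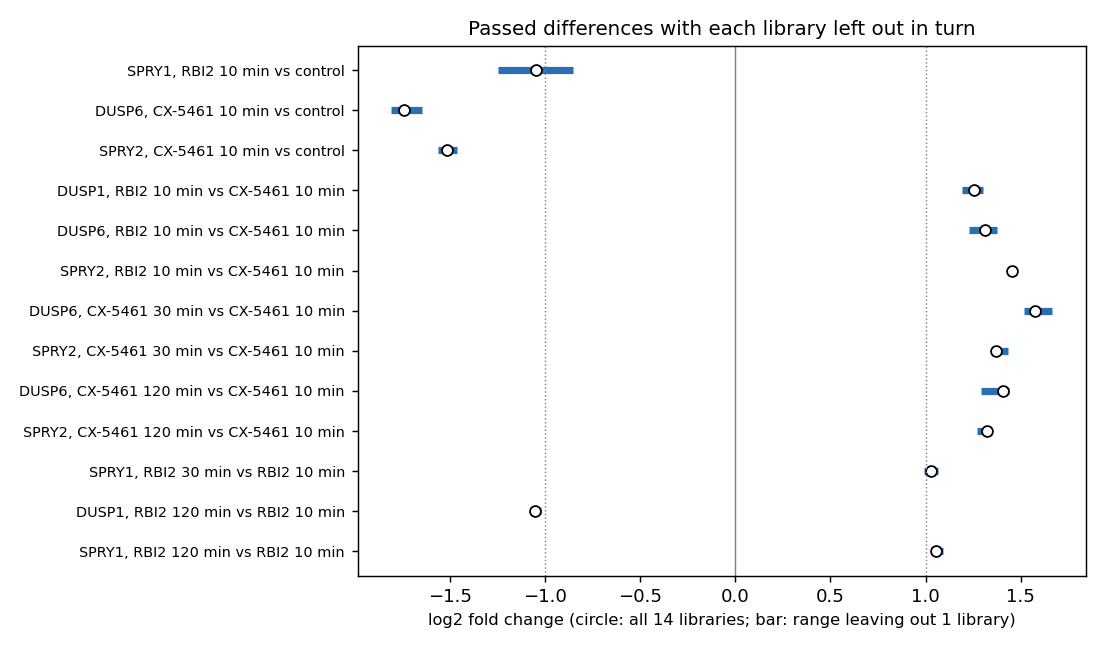
The 13 called differences of the 9 genes, as log2 fold changes (horizontal axis). Circles give the fit to all 14 libraries, bars the range as each library was left out in turn, and dotted lines the 2-fold limit. DUSP6 against the control with CX-5461 labelled 10 min ranges from -1.81 to -1.65, while SPRY1 with RBI2 ranges from -1.246 to -0.85.

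The reads of most of the 9 genes came from 1 transcript. DUSP1-201, DUSP4-201, DUSP5-201, SPRED1-201 and SPRED2-201 held on average 98.5% to 100% of their gene's reads, and SPRY2-202 held 94.6%. DUSP6 reads were split between DUSP6-201, with a mean of 74.7%, and DUSP6-202, with 23.9%, and the share of DUSP6-201 was lowest in control replicate 2, at 43.3%. SPRY1-208 held a mean of 71.5%, but was assigned 0% in 1 RBI2 library labelled 10 min. There SPRY1-201, a coding transcript of nearly the same length, took its place. The sum over transcripts, which was used for the tests, does not depend on that split, but TPM does through the length. SPRY4-206, a retained-intron transcript, held a mean of 7.39% of the SPRY4 reads. No gene that overlaps any of the 9 on the same strand held more than 1 read. Genes on the opposite strand held 96 reads at DUSP6 and 419 at SPRY4 over all libraries, and whether the strand was used in the counting is not given in the sources used here.

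The 9 genes were also compared with each other by the Pearson correlation of log2 CPM over the 14 libraries, which share treatments and controls, so that no test was made. DUSP6 and SPRY2 had the highest value, 0.97, followed by DUSP4 and DUSP6 at 0.87, DUSP4 and SPRY2 at 0.83, DUSP1 and SPRY4 at 0.83, and SPRED1 and SPRED2 at 0.81. DUSP1 and SPRY1 were the most opposed, at -0.42. Among 10569 genes with at least 5 CPM on average, those most like DUSP6 were MYC (0.98) and PHLDA1 (0.97). Those most like SPRY2 were MYC (0.99) and EIF4A2 (0.99). DUSP6 and SPRY2 were both lowest in the CX-5461 libraries labelled 10 min, and MYC was called lower there than in the control. How far these correlations rest on that group was not tested. CITED2 (0.95) was among those most like SPRY1, and for DUSP1 they were KCTD6 (0.92) and SHISA2 (0.88).

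Other genes of the pathway were compared from lists by role. These lists were chosen with earlier results of these data known, and no test of a list as a set was made. With CX-5461 labelled 10 min, 6 of 12 ERK output genes were called, where 1.64% of all genes were. Of all genes tested, 3 were called with only the 4 libraries compared, so at most 3 of these 6 could be called there. MYC, FOSL1, IER3 and PHLDA1, transcripts that rise with ERK activity, were lower, with log2 fold changes of -2.46, -1.15, -1.34 and -1.33, where 0.888% of all genes were called lower. EGR1 and FOS, immediate early transcription factors that also rise with ERK activity, were higher, at 1.77 and 2.08, where 0.752% of all genes were called higher. The output list therefore moved in both directions, and its median was -0.02. FOS had 2.24 and 2.30 CPM in the control and 9.23 and 9.97 CPM with CX-5461, and EGR1 had 9.01 and 12.9 CPM against 37.0 and 37.2 CPM. MYC had 178 and 193 CPM against 32.3 and 34.9 CPM. For MYC both CX-5461 libraries lay below both controls, which held for 24% of all genes. For EGR1 and FOS both lay above, and the share of all genes that did so was not counted.

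In the direct comparison at 10 min, 4 of the 12 output genes were called, where 1.04% of all genes were. MYC and IER3 were higher with RBI2 than with CX-5461, by 2.30 and 1.18, where 0.635% of all genes were called higher, and EGR1 and FOS were lower, at -1.30 and -1.37, where 0.402% of all genes were called lower. MYC and IER3 thus lay on the side of DUSP6 and SPRY2, and EGR1 and FOS on the other. With RBI2 against the control, 0 of the 12 were called at any label by edgeR or DESeq2, and 6, 4 and 8 had an unadjusted p under 0.05 at 10, 30 and 120 min, where 12.9%, 25.8% and 35.9% of all genes did. At 10, 30 and 120 min 1, 0 and 5 of the 12 had an edgeR adjusted p under 0.05. Of all genes, 0.201%, 0.0713% and 18% did. FOS was called higher by edgeR with CX-5461 labelled 120 min, at 1.10 (edgeR adjusted p = 0.026), but not by DESeq2, and 0.0454% of all genes were called in either direction.

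Of the other phosphatases of this class, 6 were tested and DUSP8 alone was called against the control. It had a mean of 2.88 CPM with CX-5461 labelled 10 min and 0.87 CPM in the control. That is higher by 1.68 on the log2 scale (edgeR adjusted p = 0.036), where 0.752% of all genes were called higher. With only the 4 libraries compared, 3 of all genes tested were called. By the adjusted p alone 3 of the 6 differed with CX-5461 labelled 10 min, where 4.77% of all genes did. The log2 fold changes of the 6 lay between -0.80 and 1.68. SPRY3 was at or near 0 in every library and was not tested. SPRED3, the third Spred gene, was higher with RBI2 labelled 120 min than with RBI2 labelled 10 min, by 1.02 (edgeR adjusted p = 0.0053), where 0.538% of all genes were called higher. SPRED1 had -0.65 in that comparison (edgeR adjusted p = 0.035), with an edgeR adjusted p of up to 0.2 as single libraries were left out.

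Genes upstream of the 9 and the transcription factors that read the cascade were taken from 5 lists: receptors and adaptors, RAS and its regulators, RAF, MEK and ERK, the JNK and p38 branch, and the ETS factors with SRF and CIC. Of their 40 genes 39 were tested. At the 10 min label 0 of the 39 were called against the control by edgeR or by DESeq2, where 1.64% of all genes were called with CX-5461 and 0.0778% with RBI2, so that few calls would be found at the background rate. At an unadjusted p under 0.05 the counts were 10 with CX-5461 and 4 with RBI2, where 22.5% and 12.9% of all genes differed. Their log2 fold changes lay between -0.86 and 0.78 with CX-5461 and between -0.57 and 0.48 with RBI2. At the later labels 0 of the 39 were called as well, and the counts at an unadjusted p under 0.05 were 17 and 25 with RBI2 at 30 and 120 min and 16 and 7 with CX-5461, where 25.8%, 35.9%, 22.9% and 12.4% of all genes differed. With RBI2 labelled 120 min 11 of the 39 had an edgeR adjusted p under 0.05, where 18% of all genes did.

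**Figure D4:**
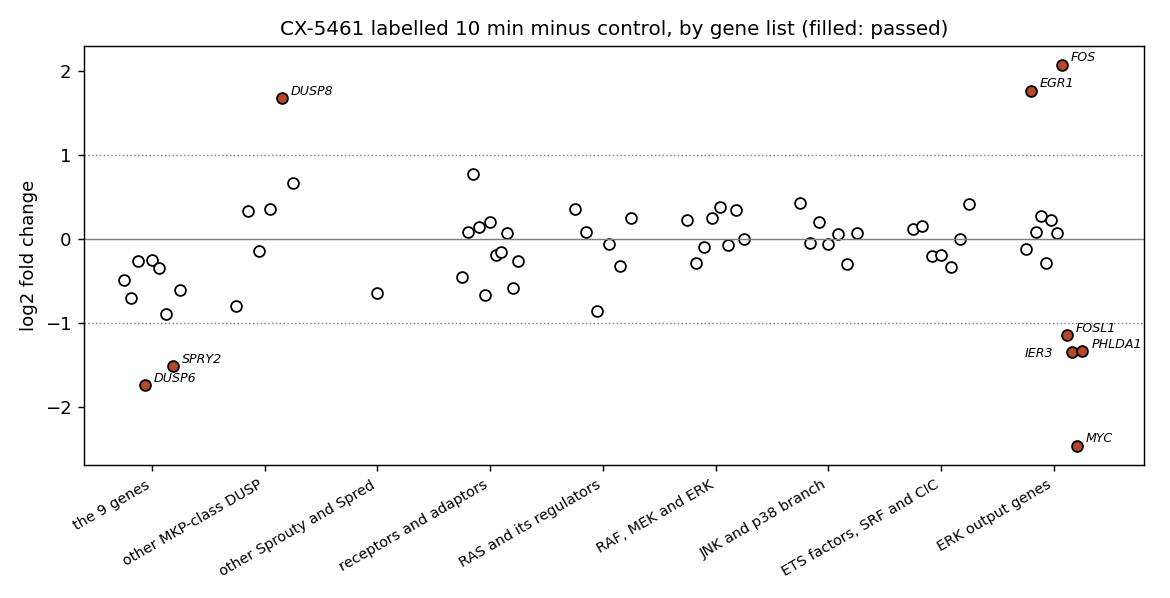
Log2 fold change (vertical axis) of CX-5461 labelled 10 min minus the control for each tested gene, by list (horizontal axis). Filled circles passed the adjusted p and the 2-fold limit, which the dotted lines mark. The called genes are DUSP6 and SPRY2 at -1.74 and -1.52, DUSP8 at 1.68, and 6 ERK output genes from MYC at -2.46 to FOS at 2.08.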

How the data were processed

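Poly(A) RNA was sequenced with a stranded kit in 14 libraries. Per the labels and the methods, the authors removed reads that aligned to the rDNA repeat and assigned the rest to GRCh38 transcripts with Salmon 1.3.0. The deposited values used here are the estimated counts per transcript, which the authors did not normalize. TPM values were used for levels between genes only, also as deposited by the authors. Estimated counts were summed per gene (GENCODE 44, 225662 of 228754 transcripts matched) and rounded. Genes with low counts were removed (filterByExpr in edgeR 4.0.16, minimum 10), and 7 groups were fitted in 1 quasi-likelihood model with TMM scaling in R 4.3.3. P-values were adjusted by Benjamini-Hochberg over the 15426 genes of each of 15 comparisons, and a call needed an adjusted p under 0.05 and a 2-fold change. CPM uses the TMM-scaled library sizes. Common biological variation was 12.3%. Figures were drawn with matplotlib 3.10.9. The members, lists and tests were chosen with earlier results of these data known. From the lists, genes called in any comparison were named, and for each called member the 2 genes with the highest correlation, of which 1 is not reported here. Alternatives were DESeq2 1.42.0, its size factors in edgeR, no filter, a transcript length offset, leaving out mitochondrial genes or noncoding transcripts, no fold limit, an unadjusted p, a replicate block, only the 4 libraries of a comparison, and each library left out. Protein sequences were not analysed here. With 2 libraries per group, precision rests on the spread pooled over the 7 groups.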

Additional observations from a re-analysis of the deposited data

Results flagged for a closer look

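The differences between time labels within a compound that passed both thresholds are listed because the same contrast differed between groups by its own test. Within CX-5461, DUSP6 was higher at 30 min than at 10 min by 1.58 and at 120 min by 1.41 on the log2 scale. SPRY2 was higher by 1.37 and 1.32 in the same comparisons. Within RBI2, SPRY1 was higher at 30 min than at 10 min by 1.03 and at 120 min by 1.06, and DUSP1 was lower at 120 min than at 10 min, at -1.06. Groups of 2 libraries are too small for a check of single outlying values.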

How the results depend on the processing

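The counts of called genes among the 9 were recomputed under 24 alternatives. With no fold limit they were 2 instead of 1 for RBI2 labelled 10 min against the control, 3 instead of 0 for RBI2 labelled 120 min, 6 instead of 2 for CX-5461 labelled 10 min, 5 instead of 3 for RBI2 against CX-5461 at 10 min, 2 instead of 0 at 120 min, 4 instead of 2 for CX-5461 labelled 30 or 120 min against 10 min, 2 instead of 1 for RBI2 labelled 30 against 10 min, and 3 instead of 2 for RBI2 labelled 120 against 10 min. By that rule 0.201%, 18%, 4.77%, 3.06%, 16.1%, 2.43% and 3.12%, 0.188% and 6.44% of all genes differed in these comparisons, in the same order. With the length offset, the counts for RBI2 labelled 10 min against the control and for RBI2 labelled 30 against 10 min were 0. With only the 4 libraries of a comparison, the counts against the control were 0 for RBI2 and 0 for CX-5461 labelled 10 min, and the cause was not tested, while RBI2 against CX-5461 at 10 min gave 3 and CX-5461 labelled 30 or 120 min against 10 min gave 2. Leaving out 1 library gave 0 to 1 for RBI2 labelled 10 min against the control, 2 to 3 for CX-5461 labelled 10 min (3 without control replicate 1), 0 to 1 for RBI2 labelled 30 against 10 min and 1 to 2 for RBI2 labelled 120 against 10 min. DESeq2 gave the main counts in all 15 comparisons. Over all genes, the number called with RBI2 labelled 10 min against the control was 12, and it was 36 by DESeq2, 355 with no filter on low counts and 724 without control replicate 1. For CX-5461 it was 253, 275 and 726, 1354 without control replicate 1 and 3 with only the 4 libraries, and for RBI2 against CX-5461 at 10 min it was 160, 160 and 398, and 225 without either control replicate and 258 with only the 4 libraries. Of the single fold changes under the alternatives, 3097 kept their direction and call, 15 lost a call, 19 gained one, 109 uncalled values changed sign and 0 called values did.

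The replicate numbers were shared across groups, and the labels give nothing else that ties the libraries together. The differences between replicates correlated by -0.179 to 0.18 over 21 pairs of groups, above 0.1 in 3 and below -0.1 in 2. The 3 were of the control with CX-5461 labelled 10 min (0.107), CX-5461 labelled 120 min (0.18) and RBI2 labelled 120 min (0.162). A replicate block changed none of the 15 counts of called genes among the 9, with 2 for CX-5461 labelled 10 min against the control and 3 for RBI2 against CX-5461 at 10 min. By the adjusted p alone it changed the count lower with RBI2 labelled 120 min against the control from 3 to 1, and that higher with RBI2 against CX-5461 at 120 min from 1 to 0.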
